A study of Rattus norvegicus with 10 samples.

Results

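Chemokines are small secreted proteins that draw leukocytes along a gradient, and chemokine receptors are the G protein-coupled receptors through which leukocytes sense them. The genes described here are those whose symbol begins with Ccl, Cxcl, Ccr or Cxcr and a digit, together with Cx3cl1, Cx3cr1 and Xcl1. The array carried probes for 47 of these genes (30 ligands and 17 receptors, on 53 probes) among 13426 genes with a symbol on 40945 probes tested. No probe carried the symbol of Ccl1, Ccl6, Ccr8, Cxcl3 or Cxcl16.

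The study asked how MASM, a synthetic derivative of the plant alkaloid matrine, acts on rats exposed to total-body irradiation (TBI). Liver RNA of male Wistar rats was hybridised to 1 array per rat, from 3 control rats that were not irradiated, 3 rats given TBI of 6.5 Gy from a cobalt source, and 4 rats given MASM by mouth at 30 mg/kg a day for 3 days and then the same TBI (MASM + TBI). The dose is that of the labels, and the article states another. All livers were taken 24 h after the irradiation, and no group received MASM without TBI. The groups come from the labels of the arrays. The supplementary fold changes of the article use the same arrays as controls, but its heat map names the arrays labelled TBI as control and those labelled control as TBI, and with those names the sign of TBI minus control would turn and the comparisons of MASM + TBI with control and with TBI would trade places. The article also reports real-time PCR of selected genes, with changes in the same direction as its array fold changes. Values are log2 processed signals after quantile normalization, and a difference of 1 is a 2-fold change. The number of arrays limits the precision, and in whole liver fewer cells of a type and less RNA per cell cannot be told apart.

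In the liver, Kupffer cells (the resident macrophages), endothelium, stellate cells and hepatocytes all make chemokines, and the ligands draw neutrophils, monocytes, T cells and natural killer cells out of the sinusoidal blood. Inflammatory ligands are induced through NF-kappaB and interferon signalling, while homeostatic ligands such as Cxcl12, Ccl19 and Ccl21 are made continuously and place lymphocytes and stem cells within tissues. Lymphocytes are among the cells most sensitive to ionizing radiation.

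All 6 hepatocyte markers were well above background on all arrays, and the sum of their linear signals lay between 1104675 and 1185673 in control rats, between 1051424 and 1199868 in TBI rats and between 1169495 and 1239529 in MASM + TBI rats. The 3 control arrays shared a slide with MASM + TBI rat 3, the other MASM + TBI rats shared another slide, and the 3 TBI arrays had a slide of their own, so for TBI the slide and the group cannot be told apart. The lowest log2 signal that counted as well above background was 2.54 to 3.16 in TBI rats, 3.71 to 4.0 in control rats and 3.68 to 4.10 in MASM + TBI rats, so weak genes were detected more often in TBI rats.

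The promoters of 36 of the 47 genes are in the RefSeq table of the GRCr8 assembly, as 250 bases before to 50 bases after the annotated start, and 6 of them are shown because the results below turn on these ligands. Cxcl9, Cxcl10 and Cxcl11 bind the same receptor, Cxcr3, and their signals differed between groups to different extents. Ccl12 and Xcl1 are, with Cxcl10, the called genes whose promoter is in the table, and Cxcl1 is the ligand drawing neutrophils that was measured on all arrays. Capitals mark matches on either strand to 4 motifs, the core of the interferon-stimulated response element (GAAANNGAAA), the interferon gamma activated site (TTCNNNGAA), an NF-kappaB motif (GGGNNTTTCC) and the TATA box (TATAAA). The positions are chr14:16006916-16007215 (plus strand) for Cxcl9, chr14:15988816-15989115 (plus strand) for Cxcl10, chr14:15973478-15973777 (plus strand) for Cxcl11, chr10:67567626-67567925 (plus strand) for Ccl12, chr13:79785391-79785690 (minus strand) for Xcl1 and chr14:17479272-17479571 (minus strand) for Cxcl1.
Cxcl9: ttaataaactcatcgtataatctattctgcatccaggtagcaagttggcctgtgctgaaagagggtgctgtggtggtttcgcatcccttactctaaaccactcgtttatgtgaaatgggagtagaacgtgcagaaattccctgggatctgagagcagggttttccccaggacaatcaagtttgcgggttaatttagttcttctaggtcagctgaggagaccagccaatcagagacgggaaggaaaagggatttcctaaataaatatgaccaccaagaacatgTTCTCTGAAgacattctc
Cxcl10: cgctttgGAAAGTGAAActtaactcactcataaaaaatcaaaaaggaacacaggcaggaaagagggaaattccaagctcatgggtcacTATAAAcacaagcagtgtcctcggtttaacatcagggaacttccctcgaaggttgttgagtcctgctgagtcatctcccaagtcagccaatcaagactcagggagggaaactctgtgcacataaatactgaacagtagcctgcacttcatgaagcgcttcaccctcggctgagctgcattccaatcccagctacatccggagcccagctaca
Cxcl11: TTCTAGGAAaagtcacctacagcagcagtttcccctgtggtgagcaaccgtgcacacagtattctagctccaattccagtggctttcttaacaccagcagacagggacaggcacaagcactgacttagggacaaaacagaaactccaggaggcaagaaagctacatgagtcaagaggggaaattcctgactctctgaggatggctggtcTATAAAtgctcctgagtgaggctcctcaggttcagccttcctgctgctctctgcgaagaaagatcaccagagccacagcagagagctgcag
Ccl12: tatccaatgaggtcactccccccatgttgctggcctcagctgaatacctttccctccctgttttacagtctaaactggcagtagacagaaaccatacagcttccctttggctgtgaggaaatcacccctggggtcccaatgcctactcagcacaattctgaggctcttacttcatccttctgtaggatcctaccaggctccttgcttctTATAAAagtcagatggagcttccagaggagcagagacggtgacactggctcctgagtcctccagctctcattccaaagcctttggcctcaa
Xcl1: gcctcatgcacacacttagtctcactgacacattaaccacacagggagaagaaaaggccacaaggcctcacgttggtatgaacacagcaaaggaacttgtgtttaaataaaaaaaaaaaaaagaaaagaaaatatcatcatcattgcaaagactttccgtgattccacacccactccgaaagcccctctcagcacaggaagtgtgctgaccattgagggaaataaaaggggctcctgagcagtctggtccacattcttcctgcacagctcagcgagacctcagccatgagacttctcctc
Cxcl1: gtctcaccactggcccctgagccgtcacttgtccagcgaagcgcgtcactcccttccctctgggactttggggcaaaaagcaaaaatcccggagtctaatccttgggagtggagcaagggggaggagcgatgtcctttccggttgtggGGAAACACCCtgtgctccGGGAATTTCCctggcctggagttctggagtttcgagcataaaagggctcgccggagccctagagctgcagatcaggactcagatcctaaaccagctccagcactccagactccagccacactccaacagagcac

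The Cxcl10 promoter held the interferon response element at position -243 from the start and a TATA box at -162. Cxcl11 held the interferon gamma activated site at -250 and a TATA box at -41, and Cxcl9 held the former at 33, downstream of the start. Ccl12 held a TATA box at -41 and Xcl1 held none of the 4 motifs. Cxcl1 held the NF-kappaB motif at -102 on the reverse strand and again at -84. Over the 36 promoters, the NF-kappaB motif was present in 6 (16.7%, against 1.53% of all 33469 promoters of this length), namely those of Cxcl1, Cxcl2, Cxcl6, Ccl9, Ccl20 and Ccr3. The interferon gamma activated site was in 6 (16.7%, against 8.87%), the interferon response element in 2 (5.56%, against 3.92%) and the TATA box in 10 (27.8%, against 14.2%). A match is a description of the letters and not a bound site.

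Of the 47 genes, 23 were well above background on all 10 arrays, 11 on some and 13 on none. Of the 23 genes, 21 were ligands, so most receptors were weak or not measured in whole liver. The genes on no array were Ccl11, Ccl20, Ccl25, Ccl26, Ccr1, Ccr2, Ccr3, Ccr6, Ccr9, Cxcl6, Cxcr1, Cxcr5 and Cxcr6. Those on some arrays were Ccl7, Ccl17, Ccl28, Ccr1l1, Ccr4, Ccr7, Ccr10, Cx3cr1, Cxcl2, Cxcr2 and Cxcr3. Signals of different probes are not compared here as RNA levels.

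**Figure D1:**
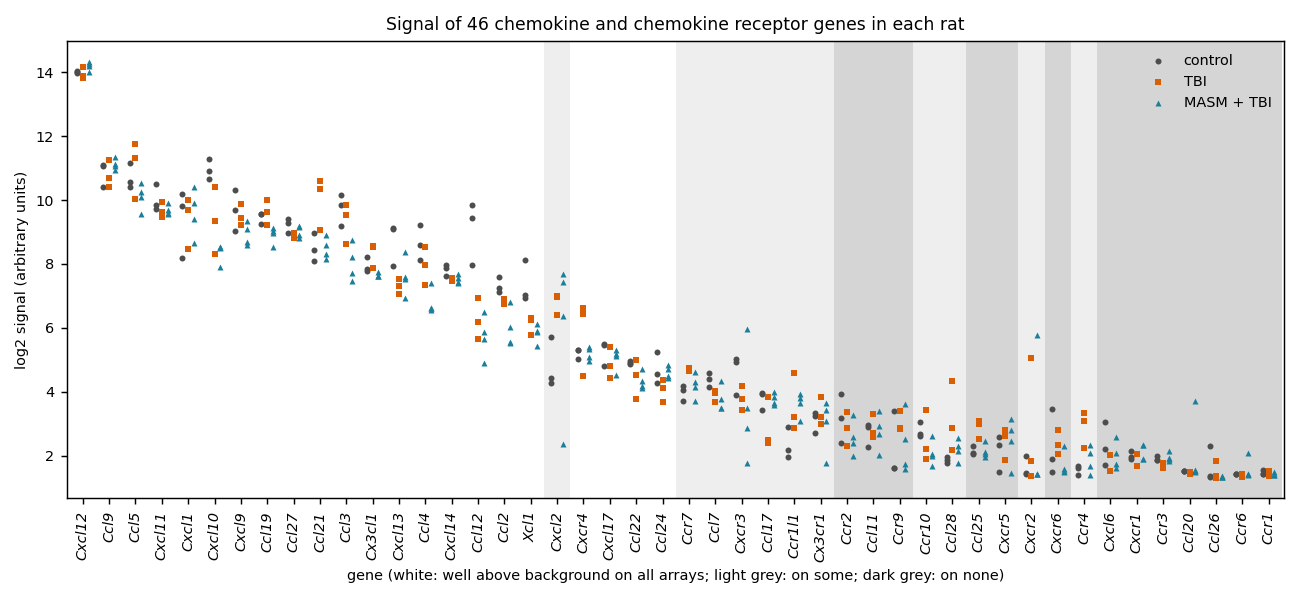
Log2 signal (vertical axis, arbitrary units) of 46 of the genes in each of 10 rats, genes in order of their mean over all rats, with circles for control, squares for TBI and triangles for MASM + TBI. White columns hold the 22 genes drawn that were well above background on all arrays, light grey the 11 on some and dark grey the 13 on none.

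A gene was called where the adjusted p was under 0.05 and the change at least 1.5-fold, with the adjustment over all 40945 probes and each gene taken by its brightest probe. After TBI alone, 0 of the 47 genes were called higher than in control rats (2.44% of all genes) and 1 lower (2.74% of all genes), namely Ccl12. At an unadjusted p under 0.05 with the same fold, 6 were higher (7.54% of all genes) and 6 lower (5.59% of all genes). Against the same control rats, MASM + TBI rats had 0 genes called higher (0.931% of all genes) and 4 called lower (1.97% of all genes), namely Ccl12, Cxcl10, Ccl4 and Xcl1. The unadjusted rule gave 1 higher (3.5% of all genes) and 10 lower (5.68% of all genes). Between MASM + TBI and TBI rats, 0 were called higher (0.261% of all genes) and 0 lower (0.603% of all genes), while the unadjusted rule gave 1 higher (1.73% of all genes) and 9 lower (6.09% of all genes).

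The median log2 difference over the 47 genes was -0.08 for TBI minus control, -0.21 for MASM + TBI minus control and -0.28 for MASM + TBI minus TBI, against -0.01, 0.00 and 0.01 over all genes. Ligands accounted for 9 of the 10 genes that were lower in MASM + TBI than in control rats by the unadjusted rule. The comparisons share rats: TBI minus control and MASM + TBI minus control use the same control rats, and MASM + TBI minus TBI uses the same irradiated rats again. Scaling to the 75th percentile in place of quantile normalization turned the share of all genes called to 4.47% higher and 10.5% lower for TBI minus control and to 7.08% higher and 2.63% lower for MASM + TBI minus TBI, and with it the members called were 3 higher and 6 lower in the former and 1 higher and 5 lower in the latter.

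**Figure D2:**
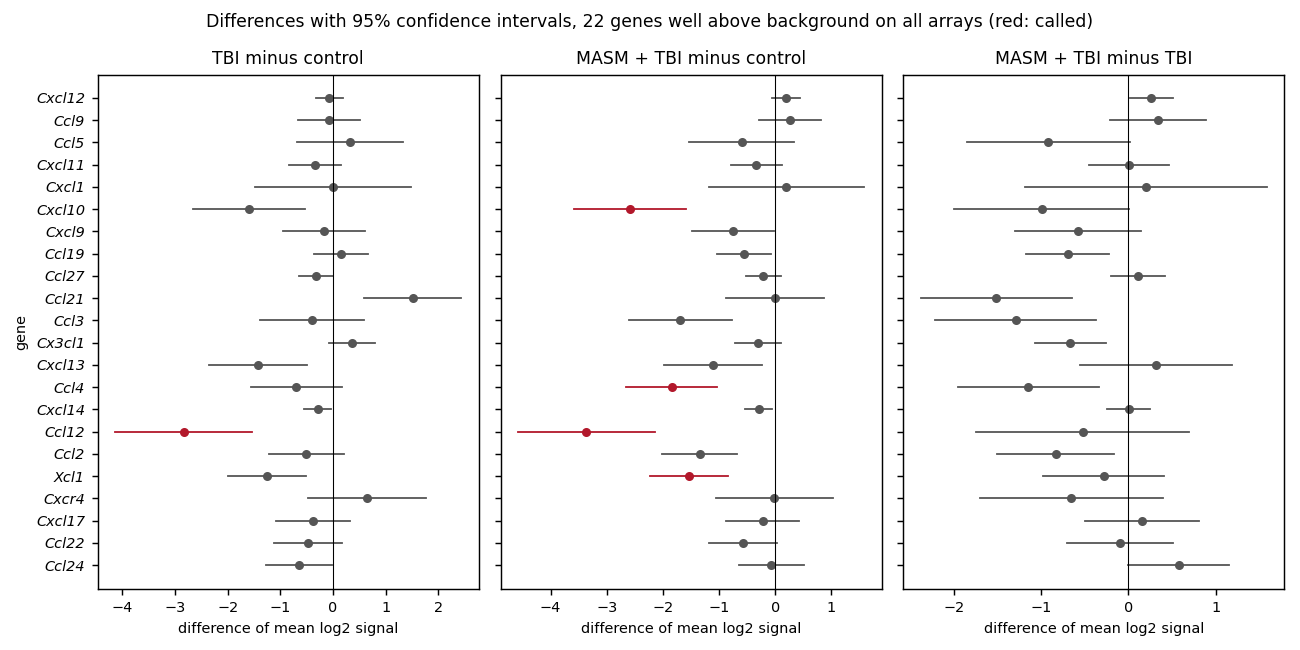
Difference of mean log2 signal (horizontal axis) with its 95% confidence interval for 22 genes well above background on all arrays, in the 3 comparisons. Called genes are red, namely Ccl12 at -2.84 in the first panel and Ccl12, Cxcl10, Ccl4 and Xcl1 in the second, and no gene is red in the third.

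Ccl12, a monocyte-attracting ligand of the Ccl2 group, had the largest estimated difference of the 47 genes in TBI minus control and in MASM + TBI minus control. Its log2 signal was 7.98, 9.45 and 9.85 in control rats, 6.94, 5.64 and 6.19 in TBI rats and 5.87, 5.67, 6.49 and 4.91 in MASM + TBI rats. Every irradiated rat was below every control rat. It fell by 2.84 after TBI (SE 0.57, 7.16-fold, adjusted p = 0.0283) and it fell by 3.36 after MASM + TBI (SE 0.53, 10.3-fold, adjusted p = 0.0170). Between the irradiated groups the signals overlapped, and the difference was -0.52 (95% confidence interval -1.74 to 0.70, adjusted p = 0.659). Left out in turn, 4 rats ended the call for TBI, with an adjusted p of 0.0830 without control rat 2, 0.0921 without control rat 3, 0.0760 without TBI rat 2 and 0.0558 without TBI rat 3. With the normexp background correction, the fall after TBI was 1.59 and that after MASM + TBI 1.81, and both remained called. The call for TBI also ended with models of 2 groups (adjusted p = 0.0799), with the methods' t-test (adjusted p = 0.263) and with the replicate number as a block (adjusted p = 0.068). That for MASM + TBI ended with the methods' t-test (adjusted p = 0.217), the replicate block (adjusted p = 0.0898) and the slide as a fixed block (adjusted p = 0.229).

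Cxcl10, an interferon-inducible ligand that draws T cells and natural killer cells through Cxcr3, had signals of 10.66, 11.30 and 10.90 in control rats. They were 8.31, 10.42 and 9.34 in TBI rats and 8.53, 8.53, 8.50 and 7.90 in MASM + TBI rats. No irradiated rat reached the lowest control rat, and TBI rat 2 lay nearest to it. Cxcl10 fell by 2.59 after MASM + TBI (SE 0.44, 6.02-fold, adjusted p = 0.0214), and after TBI alone the difference was -1.59 (SE 0.47, 3.02-fold, adjusted p = 0.0886), which did not pass. MASM + TBI minus TBI was -0.996 (95% confidence interval -1.996 to 0.003, adjusted p = 0.296).

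The other ligands of Cxcr3 differed less. Cxcl9 was 9.04, 10.32 and 9.69 in control rats, 9.42, 9.88 and 9.23 in TBI rats and 9.09, 9.35, 8.70 and 8.60 in MASM + TBI rats. MASM + TBI minus control was -0.75 (SE 0.32, unadjusted p = 0.0444, adjusted p = 0.276), and TBI minus control was -0.17 (95% confidence interval -0.95 to 0.61). Cxcl11 was 9.72, 10.51 and 9.84 in control rats, 9.64, 9.93 and 9.47 in TBI rats and 9.61, 9.90, 9.55 and 9.69 in MASM + TBI rats, with all 3 groups overlapping and an adjusted p of 0.383 for TBI and 0.479 for MASM + TBI against control. The receptor Cxcr3, found on activated T cells and natural killer cells, was well above background in 2 control, 2 TBI and 1 MASM + TBI rat, and its highest signal, 5.98, was in MASM + TBI rat 3. Of these 4 genes, 1 was called lower in MASM + TBI rats and 0 in TBI rats, and the median difference was -0.92 and -0.58 against control.

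Ccl3 and Ccl4 (macrophage inflammatory proteins) and Ccl5 (made by T cells and natural killer cells) form the next group. Ccl4 was 8.11, 9.22 and 8.59 in control rats, 7.35, 8.52 and 7.96 in TBI rats and 6.62, 7.39, 6.61 and 6.57 in MASM + TBI rats. It fell by 1.84 after MASM + TBI against control (SE 0.35, 3.58-fold, adjusted p = 0.0340), without overlap. The mean of the TBI rats lay between those of the other groups, and their range overlapped with both. TBI minus control was -0.70 (adjusted p = 0.310) and MASM + TBI minus TBI was -1.15 (SE 0.35, unadjusted p = 0.0112, adjusted p = 0.158).

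Ccl3 signals were 9.18, 10.16 and 9.85 in control rats, 8.61, 9.86 and 9.54 in TBI rats and 8.75, 8.23, 7.73 and 7.46 in MASM + TBI rats. All MASM + TBI rats were below all control rats, but TBI rat 1 lay within the MASM + TBI range. The difference from control was -1.69 (SE 0.40, adjusted p = 0.0685) in MASM + TBI rats and -0.40 (adjusted p = 0.617) in TBI rats, and MASM + TBI minus TBI was -1.29 (unadjusted p = 0.0119, adjusted p = 0.161). Ccl5 was 10.56, 11.16 and 10.42 in control rats, 10.04, 11.75 and 11.31 in TBI rats and 10.54, 10.25, 10.10 and 9.56 in MASM + TBI rats. For Ccl5 the groups overlapped in each comparison, with an adjusted p of 0.305 at the least.

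Ccl2, the main monocyte attractant, was 7.13, 7.60 and 7.24 in control rats, 6.82, 6.89 and 6.75 in TBI rats and 6.81, 5.57, 6.03 and 5.52 in MASM + TBI rats. Every irradiated rat was below every control rat. The difference from control was -1.34 in MASM + TBI rats (SE 0.29, 2.53-fold, adjusted p = 0.0514) and -0.51 in TBI rats (adjusted p = 0.373). MASM + TBI rat 1 lay within the TBI range, and the other MASM + TBI rats lay below it. Ccl7, a close relative of Ccl2, was well above background in 2 control, 3 TBI and 1 MASM + TBI rat, with means of 4.38, 3.88 and 3.77. Ccl7 passed the unadjusted rule in MASM + TBI minus control (-0.61, adjusted p = 0.203). Its other probe was 0.15 above control in TBI rats and at -0.57 from it in MASM + TBI rats (adjusted p = 0.853 and 0.513).

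Ccl9, a monocyte attractant, was 10.40, 11.10 and 11.07 in control rats, 10.68, 10.41 and 11.26 in TBI rats and 11.14, 11.06, 11.34 and 10.95 in MASM + TBI rats. It differed from control by -0.08 (95% confidence interval -0.66 to 0.51) after TBI and by 0.26 (-0.28 to 0.81) after MASM + TBI. Of the 10 measured genes of the monocyte-attracting and inflammatory CC group, 2 were called lower in MASM + TBI rats and 1 in TBI rats, and 0 higher. The median difference of the group from control was -0.79 and -0.35.

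Xcl1 (lymphotactin), which T cells and natural killer cells make and which draws cross-presenting dendritic cells, was 7.03, 8.12 and 6.95 in control rats. It was 5.77, 6.32 and 6.24 in TBI rats and 5.88, 6.11, 5.90 and 5.42 in MASM + TBI rats, so that every irradiated rat was below every control rat. It fell by 1.54 after MASM + TBI (SE 0.30, 2.898-fold, adjusted p = 0.0376), and after TBI the difference was -1.25 (SE 0.33, 2.38-fold, adjusted p = 0.0628). Between the irradiated groups it was -0.28 (95% confidence interval -0.98 to 0.41). With normexp, the difference after MASM + TBI was -0.70 with an adjusted p of 0.0377. Its receptor gene Xcr1 was well above background on no array.

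**Figure D3:**
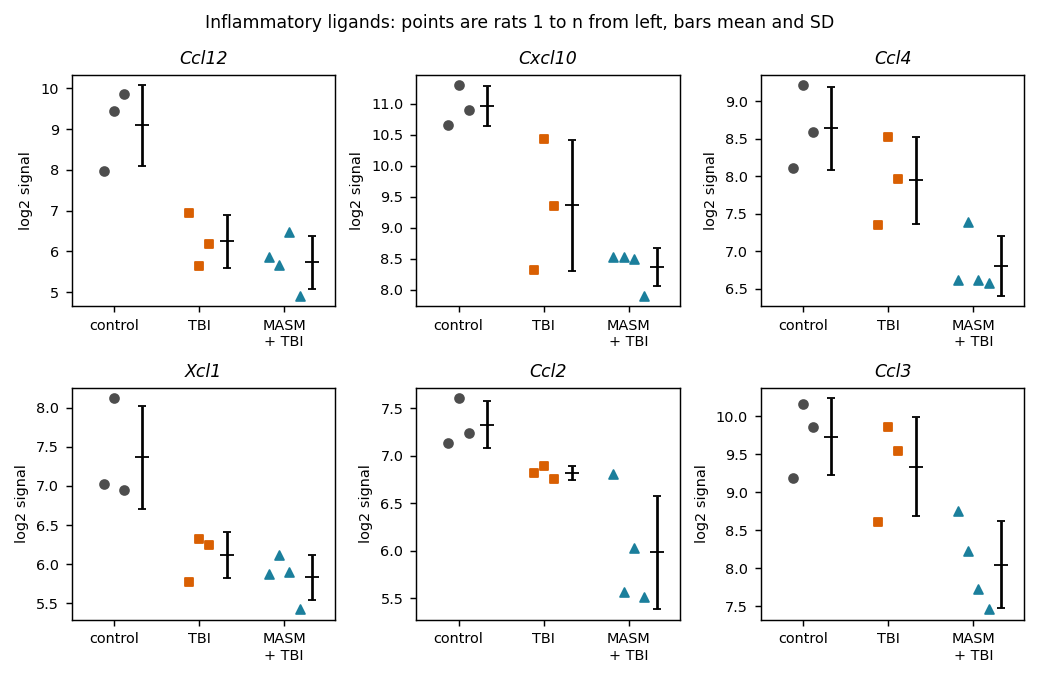
Log2 signal (vertical axes) of 6 inflammatory ligands in each rat by group, with the mean and SD as bars (n = 3, 3 and 4). For Ccl12, Cxcl10, Xcl1 and Ccl2 every irradiated rat lies below the control rats, and for Ccl4 and Ccl3 every MASM + TBI rat does.

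The comparison of MASM + TBI with control can be made within 1 slide only for MASM + TBI rat 3. That rat differed from the 3 control rats by -2.61 for Ccl12, -2.45 for Cxcl10, -2.03 for Ccl4, -1.46 for Xcl1, -1.999 for Ccl3 and -1.29 for Ccl2. The other MASM + TBI rats differed by -3.62, -2.64, -1.78, -1.56, -1.58 and -1.36, in the same order. With the slide as a fixed term, which leaves that 1 rat to carry the difference, the adjusted p of the 4 called genes rose to 0.20 or above. The calls in MASM + TBI minus control each also depended on single rats. Ccl12 was no longer called without control rat 2 (adjusted p = 0.0697) or control rat 3 (0.0675). The same rats ended the call of Cxcl10 (0.0831 and 0.0776), as did MASM + TBI rat 1 (0.0591) and rat 4 (0.0594). Ccl4 lost its call without control rat 2 or 3 (0.109 each) and without MASM + TBI rat 1, 3 or 4 (0.0985, 0.0790 and 0.0872). When 1 rat was left out, Xcl1 kept its call only without TBI rat 1 (0.0453). Without control rat 1, 2 or 3 its adjusted p was 0.0542, 0.0623 and 0.0640, without TBI rat 2 or 3 it was 0.0553 and 0.0505, and without MASM + TBI rats 1 to 4 in turn it was 0.0980, 0.0596, 0.0764 and 0.0891.

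Markers of the leukocytes that make and follow these ligands were measured beside them. The summed linear signal of 8 T cell markers was 613.5 to 844.7 in control rats, 346.3 to 532.8 in TBI rats and 255.8 to 460.7 in MASM + TBI rats, without overlap between control and irradiated rats. Of the 8, 3 were called lower after TBI and 2 after MASM + TBI, and 0 higher. The estimates did not all point one way, with 3 of the 8 above 0 after TBI (up to 0.71) and 2 after MASM + TBI (up to 0.41), none of them called. Cd3g, a chain of the T cell receptor complex, was 7.07 to 7.31 in control rats, 2.84 to 4.14 in TBI rats and 2.93 to 4.40 in MASM + TBI rats (adjusted p = 0.00381 and 0.00343). Cd3e was called in both although it was well above background on no array. Cd2, which T cells share with natural killer cells, was called after TBI (at least 5.14-fold lower, adjusted p = 0.00622). In MASM + TBI rats it was at -1.62 from control (adjusted p = 0.112) and at least 1.67-fold above TBI (adjusted p = 0.0737), neither of them called. The B cell marker Cd79b was at least 4.98-fold lower after TBI and at least 2.55-fold lower after MASM + TBI (adjusted p = 0.00484 and 0.00378). Of the 4 measured B cell markers, Cd79b was the 1 called, and after TBI 2 of the 4 estimates were above 0 (up to 0.54). The B cell sum was 202.2 to 218.4 in control rats, 171.2 to 294.8 in TBI rats and 137.3 to 180.8 in MASM + TBI rats, so that TBI rats lay on both sides of the control rats.

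The sum of 5 natural killer cell markers was 1065 to 2326 in control rats, 630.5 to 2027 in TBI rats and 394.3 to 872.7 in MASM + TBI rats, and 0 of the 5 were called. All 5 estimates were below 0 in MASM + TBI minus control (-1.91 to -0.76) and in MASM + TBI minus TBI (-1.52 to -0.42), and 3 and 2 of them were lower by the unadjusted rule. The sum of 7 Kupffer cell and macrophage markers was 47609 to 67746, 47267 to 88141 and 37616 to 46683 in the same order, also with 0 called, and 4 of them were lower in MASM + TBI than in TBI rats by the unadjusted rule. The sum of the MASM + TBI rats was below that of every control rat for both lists. For the Kupffer list this rested on Clec4f, a Kupffer cell lectin, whose probe gave 74.1% to 82.9% of the sum in any rat. Without it the sum of the other 6 markers was 8153 to 13490 in control rats, 10646 to 20920 in TBI rats and 7322 to 10176 in MASM + TBI rats, so that control rats overlapped with both other groups while all TBI rats lay above all MASM + TBI rats. The part of these markers in the lower ligand signals was not tested.

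**Figure D4:**
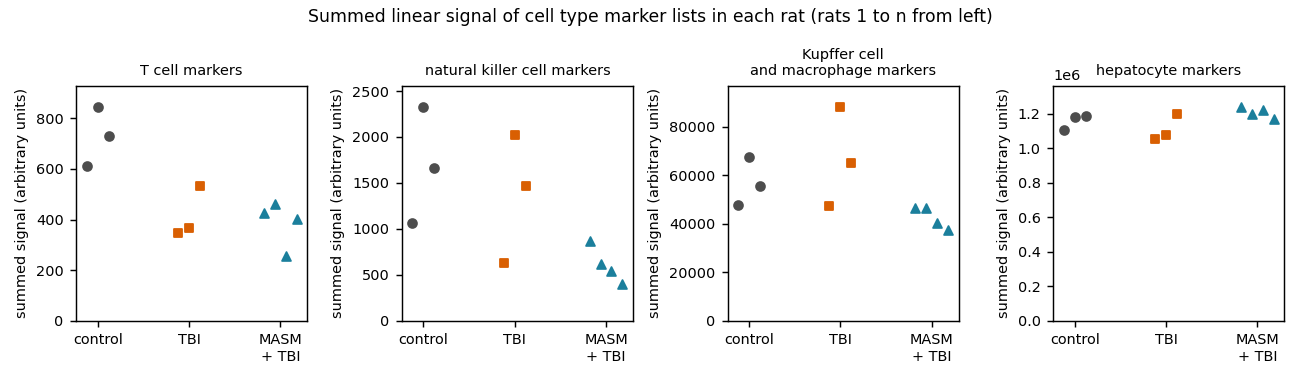
Summed linear signal (vertical axes from 0, arbitrary units) of the T cell, natural killer cell, Kupffer cell and hepatocyte marker lists in each rat. T cell sums of all irradiated rats lie below the lowest control rat at 613.5, and natural killer and Kupffer cell sums of the MASM + TBI rats lie below every control rat, the latter carried by Clec4f.

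Some rats were often the lowest of their group. Of the 23 genes well above background on all arrays, control rat 1 had the lowest signal of the control rats in 15, and TBI rat 1 that of the TBI rats in 14. How often these rats were lowest over all genes was not computed. Both also had the lowest natural killer and Kupffer cell sums of their group. These were 1064.8 and 47608.6 in control rat 1, and 630.5 and 47267 in TBI rat 1. Without TBI rat 1, Ccl17 was called higher and Ccl21, Cx3cl1 and Cxcr4 were among 4 genes called lower in MASM + TBI minus TBI (0.454% and 2.21% of all genes in that setting). In the same setting, TBI minus control had 2 genes called higher (Ccl21 and Cxcr4, 2.45% of all genes) and 2 called lower (Ccl12 and Ccl17, 2.35% of all genes).

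Upstream genes were examined as a list of 12 NF-kappaB and interferon pathway genes, of which 10 had a probe. Of these, 0 were called higher in any comparison. Ifng, the gene of interferon gamma, was well above background on no array. Il1b, an NF-kappaB target in macrophages, was 9.28 to 9.86 in control rats, 9.76, 12.12 and 11.93 in TBI rats and 8.43 to 9.97 in MASM + TBI rats, and it was not called (adjusted p = 0.158 for TBI minus control and 0.177 for MASM + TBI minus TBI).

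Downstream, 18 genes of chemokine receptor signalling had a probe. Of these, 0 were called higher in any comparison. By the unadjusted rule, 7 of the 18 were lower in MASM + TBI than in TBI rats. These included Fgr, a myeloid kinase of the Src family, at -1.15, and Rac2, a GTPase of leukocyte motility, at -1.15, with adjusted p values of 0.101 and 0.192. The 10 measured chemokine family genes outside the symbol rule gave 0 calls. By the unadjusted rule, Ccrl2, a receptor that presents chemerin, was lower in MASM + TBI rats than in control rats (-1.15, adjusted p = 0.0833) and than in TBI rats (-0.99, adjusted p = 0.146).

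The homing ligands and their receptors gave 0 calls among 17 measured genes, with estimates on both sides of 0. Ccl21, which guides T cells and dendritic cells along lymphatic vessels, was 8.96, 8.43 and 8.09 in control rats, 9.07, 10.58 and 10.36 in TBI rats and 8.59, 8.31, 8.17 and 8.90 in MASM + TBI rats. Every TBI rat was above every rat of the other groups, with TBI rat 1 close to control rat 1. TBI minus control was 1.51 (SE 0.41, 2.85-fold, unadjusted p = 0.00535, adjusted p = 0.0696) and MASM + TBI minus TBI was -1.51 (SE 0.38, unadjusted p = 0.00363, adjusted p = 0.106). MASM + TBI minus control was 0.00 (95% confidence interval -0.87 to 0.87). Without TBI rat 1, TBI minus control was 1.98 (adjusted p = 0.0149).

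Ccr7, the receptor of Ccl21 and Ccl19 on naive T cells and mature dendritic cells, was near the detection limit. It was 3.72, 4.04 and 4.18 in control rats, 4.74, 4.64 and 4.75 in TBI rats and 4.14, 4.61, 3.72 and 4.31 in MASM + TBI rats, and was well above background in 2, 3 and 3 of them. TBI minus control was 0.73 (SE 0.21, unadjusted p = 0.00853, adjusted p = 0.0886), and this shrank to 0.13 with normexp. The lower detection limit of the TBI arrays stands beside this value, and its part was not tested. Ccl19 was 9.26, 9.57 and 9.56 in control rats, 9.21, 10.01 and 9.61 in TBI rats and 9.13, 9.02, 8.54 and 8.96 in MASM + TBI rats. All MASM + TBI rats were below all others, at -0.70 from TBI (SE 0.21, unadjusted p = 0.00960, adjusted p = 0.149).

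Cxcl13, which draws B cells into follicles through Cxcr5, was 7.95, 9.10 and 9.12 in control rats, 7.54, 7.05 and 7.30 in TBI rats and 7.58, 8.39, 6.95 and 7.53 in MASM + TBI rats. The TBI rats were below the control rats by 1.42 (SE 0.41, 2.68-fold, unadjusted p = 0.00761, adjusted p = 0.0837), and the MASM + TBI rats by 1.11 with overlap (adjusted p = 0.179). Control rat 1 was the lowest control rat and stood nearer to the irradiated rats than to the other controls. Cxcr5 was well above background on no array.

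Cxcl12, the ligand of Cxcr4 that retains stem cells in the marrow, was 14.01, 14.04 and 13.99 in control rats, 13.88, 14.15 and 13.81 in TBI rats and 14.28, 14.34, 14.02 and 14.20 in MASM + TBI rats. Differences were small on both of its probes, at -0.07 (95% confidence interval -0.33 to 0.19) after TBI and 0.19 (-0.05 to 0.44) after MASM + TBI on the brighter one. Cxcr4 was 4.48 in TBI rat 1 and 6.43 and 6.63 in the other TBI rats, against 5.02 to 5.31 in control rats and 4.96 to 5.40 in MASM + TBI rats. The spread among TBI rats exceeded any difference of means (adjusted p = 0.468 for TBI minus control).

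**Figure D5:**
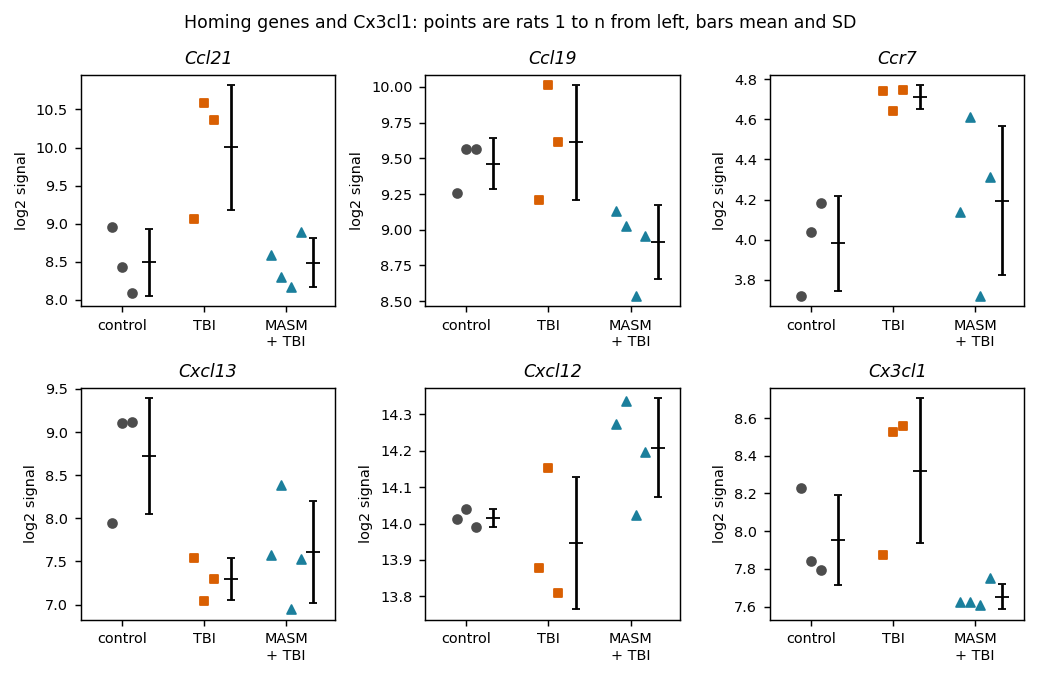
Log2 signal (vertical axes) of 5 homing genes and of Cx3cl1 in each rat by group, with the mean and SD as bars (n = 3, 3 and 4). Ccl21 and Ccr7 lie higher in the TBI rats than in the control rats, Cxcl13 lies lower, and Ccl19 and Cx3cl1 are lowest in the MASM + TBI rats, none of them called.

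Cx3cl1 (fractalkine), a membrane-bound ligand of endothelium and epithelium, was 8.23, 7.84 and 7.79 in control rats, 7.88, 8.53 and 8.56 in TBI rats and 7.62, 7.63, 7.61 and 7.75 in MASM + TBI rats. MASM + TBI minus TBI was -0.67 (SE 0.18, unadjusted p = 0.00543, adjusted p = 0.123) without overlap. Its second, dim probe gave -0.09 (95% confidence interval -0.99 to 0.81). The receptor Cx3cr1, of monocytes and natural killer cells, was well above background in 2 TBI rats only. Ccl24, an eosinophil attractant, was 4.57, 4.26 and 5.26 in control rats, 3.66, 4.36 and 4.12 in TBI rats and 4.50, 4.71, 4.85 and 4.43 in MASM + TBI rats, with -0.65 for TBI minus control (unadjusted p = 0.0421, adjusted p = 0.195). None of the 10 arrays measured Ccl11, Ccl26 or Ccr3, the other eosinophil genes, above background.

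The ligands that draw neutrophils and their receptors (Cxcl1, Cxcl2, Cxcl6, Cxcr1 and Cxcr2) gave 0 calls among 5 measured genes, and 0 passed the unadjusted rule in the model of all 10 rats. Cxcl1, the rat counterpart of the interleukin-8 group, was 8.18, 10.20 and 9.81 in control rats, 8.48, 10.00 and 9.69 in TBI rats and 10.39, 9.42, 9.92 and 8.64 in MASM + TBI rats. It spanned about the same range in the 3 groups. The difference from control was 0.00 (95% confidence interval -1.48 to 1.48) after TBI and 0.20 (-1.19 to 1.59) after MASM + TBI, so that differences of over 2-fold in either direction lie within both intervals. Cxcl2, a close relative that macrophages make, was 4.42, 5.70 and 4.27 in control rats, 6.40, 6.98 and 6.96 in TBI rats and 7.68, 6.36, 7.44 and 2.35 in MASM + TBI rats. All TBI rats were above all control rats, and so were the MASM + TBI rats but for rat 4, which was not well above background. TBI minus control for Cxcl2 was 1.99 with an SE of 1.25 (adjusted p = 0.381), an error that includes the spread of the MASM + TBI rats. Without MASM + TBI rat 4, Cxcl2 passed the unadjusted rule as higher in TBI and in MASM + TBI rats than in control rats. For TBI minus control it also did so with models of 2 groups, with the methods' t-test and with the replicate block, and for MASM + TBI minus control with the replicate block. Cxcr2, the neutrophil receptor of both ligands, was well above background in TBI rat 3 (5.04) and MASM + TBI rat 1 (5.77) alone.

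The sum of 7 neutrophil markers was 306.0 to 668.8 in control rats, 399.2 to 815.2 in TBI rats and 375.4 to 784.1 in MASM + TBI rats, and 0 of them were called. S100a8 and S100a9 were well above background on all arrays, and Mmp8 and Elane on none.

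A few dim genes passed the unadjusted rule with signals near or below background, so their means are given with no fold. Ccr4, a receptor of T cells, had mean signals of 1.56, 2.88 and 1.87 in control, TBI and MASM + TBI rats and was well above background in 1 TBI rat. Ccl28, an epithelial ligand, had means of 1.86, 3.14 and 2.20 and was well above background in 1 TBI rat. Ccr1l1 had means of 2.34, 3.56 and 3.61 and was well above background in 2 TBI rats and 1 MASM + TBI rat. Ccl25, a ligand of gut homing, had means of 2.14, 2.86 and 2.14 with no rat well above background, and Ccl17, a ligand of Ccr4, had means of 3.77, 2.902 and 3.76 with 1 rat of each group well above background. Ccr4, Ccl28 and Ccl25 had their highest means in TBI rats, whose arrays had the lower detection limit, and its part in them was not tested. Ccr1l1 was about as high in MASM + TBI rats, and Ccl17 was lowest in TBI rats.

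The remaining genes were close between groups. Ccl27 (means of 9.22, 8.90 and 9.01 in control, TBI and MASM + TBI rats), Cxcl14 (7.82, 7.52 and 7.53), Cxcl17 (5.25, 4.87 and 5.03) and Ccl22 (4.91, 4.43 and 4.33) are ligands of skin, mucosa and dendritic cells, and none of them passed the unadjusted rule with a 1.5-fold change in any comparison. The other probe of Ccl22 gave differences of 0.01 after TBI and 0.15 after MASM + TBI (adjusted p = 0.984 and 0.722).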

How the data were processed

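Liver RNA of 10 rats (3 control, 3 TBI and 4 MASM + TBI) was hybridised to 1-colour Agilent arrays, 1 rat per array, so each value rests on 1 rat and no technical repeat. Per the labels and the submitters' processing notes, the authors scanned the arrays with Agilent Feature Extraction (version 10.7) and deposited the processed signal, a background-corrected intensity in arbitrary units. The deposited value table holds the same linear intensity per probe and differed from the scanner files by 0, so it adds no independent values. Control spots and outlier spots were left out, the log2 intensities were quantile normalized, and spots of a probe were averaged, which left 40945 of 41012 probes. The files name no genes, and 16968 probes were named through the accession in the rat RefSeq gene table. A gene was taken by the probe with the highest mean.

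Groups were compared with limma (version 3.58.1, in R 4.3.3), in 1 model over all 10 arrays, with Benjamini-Hochberg adjustment over 40945 probes. Standard errors (SE) and 95% intervals are those of this model. The script was tested on simulated data. Values are given per rat for every member called, every member past the unadjusted rule whose brighter group was measured above background in each rat, and the 5 members with the highest mean signal (Cxcl12, Ccl9, Ccl5, Cxcl11 and Cxcl1), and any other gene was named after its values were seen. The results of a few genes are not reported here by name, though counts, sums and medians include them. The members and the gene lists were chosen with earlier results of these data known. Alternatives were scaling to the 75th percentile, normexp (offset 50, on median signals), leaving out dim probes, models of 2 groups, a prior that was trended and robust, the methods' t-test, the median over probes, a replicate block, the slide as a block, and leaving out each rat. Of the other lists, the sums of 4 sinusoidal endothelium markers were 12808 to 15737 in control, 16864 to 20774 in TBI and 14738 to 18555 in MASM + TBI rats with 0 called, and those of 5 stellate cell markers were 3439 to 4551, 3030 to 3982 and 2749 to 3454, with Lrat called lower in both irradiated groups.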

Additional observations from a re-analysis of the deposited data

Results flagged for a closer look

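In the MASM + TBI group, the only one of 4 rats, 7 of the 47 genes had a rat whose gap to the nearest other rat took up more of the group's range than Dixon's 95% critical value allows. Chance flags about 1 in 20 groups of normally spread values, a rate that need not hold for signals near background. The share over all genes was not computed, so the count is not read as a trait of these genes. Cxcl10 was 7.90 in MASM + TBI rat 4, below 8.50 in the nearest rat. Cx3cl1 was 7.75 in MASM + TBI rat 4, above 7.63 in the nearest. Ccl4 was 7.39 in MASM + TBI rat 2, above 6.62 in the nearest. Cxcr2 was 5.77 in MASM + TBI rat 1, where the other rats were not well above background. The other 3 genes were well above background in no rat, with Ccl20 at 3.71 in rat 1, Ccr6 at 2.08 in rat 4 and Cxcr6 at 2.31 in rat 4.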

How the results depend on the processing

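Log2 differences were recomputed for the 23 gene and comparison pairs that were called or passed the unadjusted rule in the main model. Pairs of the latter kind also had their brighter group well above background. All 469 values kept their sign, which is no independent support, since the pairs were picked from these same arrays. In 86 values the p (adjusted for called pairs, unadjusted for the others) was no longer under 0.05. The fold change was not part of that count. Counts of called genes moved more. For TBI minus control, 0 higher became 3 with scaling to the 75th percentile, 1 without dim probes, 1 with the trended and robust prior and 5 with the slide as a random block. The 1 lower became 6, 2, and 4 with the 75th percentile, without dim probes and with the slide as a random block, and 0 with models of 2 groups, with the methods' t-test and with the replicate block, where 1.37%, 0.0149% and 1.49% of all genes were called lower. For MASM + TBI minus control, the 4 lower became 0 with the methods' t-test, 0 with the slide as a fixed block and 1 (Ccl4) with the replicate block, where the share of all genes called lower was 0.0372%, 0.536% and 0.603%. It became 6 without dim probes and 6 with the slide as a random block (3.58% and 3.37% of all genes), where Ccl2 and Ccl3 were added, 5 with normexp (Ccl3 added, 1.19%) and 5 with the trended and robust prior (Ccl2 added, 2.16%). For MASM + TBI minus TBI, 0 higher became 1 and 0 lower became 5 with the 75th percentile, and 0 lower became 3 with the slide as a random block. At an unadjusted p the methods' t-test gave 3 higher and 1 lower, 1 higher and 7 lower, and 0 higher and 1 lower in the 3 comparisons. The shares of all genes past that rule with the t-test were 3.75% and 3.69%, 2.52% and 4.22%, and 1.09% and 2.28%. For TBI minus control, the shares of all genes called higher and lower were 5.78% and 4.92% with the slide as a random block, 3.74% and 4.2% without dim probes, and 2.49% and 2.76% with the trended and robust prior. For MASM + TBI minus TBI with the slide as a random block they were 0.804% and 2.08%. The correlation within slides was -0.13. Leaving out each rat gave 0 to 3 higher and 0 to 2 lower for TBI minus control, 0 to 4 lower for MASM + TBI minus control, and 0 to 1 higher and 0 to 4 lower for MASM + TBI minus TBI. Over the same settings the shares of all genes called were 1.21% to 3.62% higher and 1.5% to 2.79% lower, 0.931% to 2.35% lower, and 0.119% to 0.454% higher and 0.268% to 2.21% lower. Same-numbered rats correlated between -0.13 and 0.17 and others between -0.13 and 0.15, so the numbers do not pair the rats. Over the alternatives, the adjusted p in MASM + TBI minus control ran from 0.00463 to 0.229 for Ccl12, 0.00657 to 0.212 for Cxcl10, 0.0127 to 0.216 for Ccl4 and 0.0125 to 0.325 for Xcl1, and in TBI minus control from 0.00567 to 0.263 for Ccl12. Signal near background limits the 24 genes not measured on all arrays.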
